A study of Mus musculus with 12 samples.

Results

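Transcript levels of 213 genes that the array annotation places on mouse chromosome 18 were followed across 6 clones of MH-S, an immortalized mouse alveolar macrophage line. The genes were chosen from 619 symbols on that chromosome, out of 27464 genes in the table, as those with a mean log2 level of at least 5 over all 12 arrays and a mean difference between LPS and unstimulated arrays smaller than 0.3. Of the 619 genes, 284 reached the level and 68 of these failed the limit on the LPS difference. A further 3 genes met both limits but belong to 8 genes left out by name, Iigp1, Cd14, Csf1r, Cd74, Smad7, Egr1, Npc1 and Stard4. Just inside the level limit lay Afap1l1 (5.05) and Mir187 (5.07), and just outside it Mospd4 (4.96) and Gm10532 (4.98). Just inside the LPS limit lay Atg12 (0.29) and Gm20748 (-0.29), and just outside it Prelid2 (0.30) and Gm10524 (-0.31). Level and LPS difference chose the genes. The chromosome itself was chosen because the clones differed along it, so the deviations of single clones below are a description without a test.

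The labels describe clones 69, 73 and 83 as high in IL-4Ra activity and clones 7, 29 and 75 as low. IL-4Ra is the receptor chain shared by the cytokines IL-4 and IL-13, and the labels do not say how its activity was measured. Each clone gave 1 array after 16 h with 0.2 µg/ml LPS from Salmonella Minnesota R595, a bacterial outer membrane component that macrophages sense through TLR4, and 1 array without stimulation. The 4 groups of 3 arrays were therefore high clones with LPS, high clones unstimulated, low clones with LPS and low clones unstimulated. Each array is 1 clone, so the spread within a group is a spread between clones of the line. Of 6 general macrophage markers, Cd68 (12.15 to 12.67 on the log2 scale), Adgre1 (9.64 to 11.49), Lyz2 (10.82 to 11.87) and Fcgr1 (8.91 to 10.46) were bright, whereas Mertk lay between 6.21 and 7.96 and Itgam between 4.13 and 6.54. Among alveolar macrophage markers, Siglecf (3.61 to 4.14), Marco (3.74 to 4.27) and Car4 (3.28 to 3.73) stayed dim on every array, while Itgax (5.69 to 8.42), Pparg (4.64 to 6.75) and Fabp4 (3.90 to 7.41) varied. Of the fibroblast markers, Col1a1 lay between 7.85 and 8.67 and Dcn between 3.23 and 7.5, but Col1a2 (3.90 to 4.44) and Pdgfra (2.96 to 3.86) were dim, and Epcam and Cd3e did not exceed 4.01. The LPS array of clone 75 stood apart: its values had the lowest SD (2.46, against 2.497 to 2.535 on the other arrays), and over all genes within the same limits its median deviation was -0.09, against -0.02 to 0.03 for every other array.

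As background, genes on 1 chromosome need not be related in function, but neighbours share the copy number of the segment that holds them. Cultured immortalized lines often gain or lose whole chromosomes or large segments, and clones derived from 1 line can then differ in the dosage of many neighbouring genes. Steady transcript levels commonly move with dosage, by less for some genes than for others. DNA copy number was not analysed here, and its part in the differences below was not tested.

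Each array's level was set against the mean of the other 5 clones in the same condition. These deviations sum to 0 over the 6 clones, so high values in some clones force low values in others. The median deviation over the 213 genes in clone 69 was 0.23 with LPS and 0.21 unstimulated. In clone 73, which carries the same high label, it was -0.16 with LPS and -0.21 unstimulated. In clone 83 it was 0.15 and 0.12 in the same order of conditions. Among the low clones, clone 7 had medians of 0.17 with LPS and 0.16 unstimulated. Clone 29 had -0.12 in each condition, and clone 75 had -0.23 with LPS and -0.16 unstimulated. Thus 2 high clones and 1 low clone lay above the rest, and 1 high clone and 2 low clones lay below. Over the 8612 genes of any chromosome that met the same limits on level and LPS difference, the clone medians lay between -0.02 and 0.03, apart from the LPS array of clone 75. With those array-wide medians subtracted, the median of clone 75 with LPS was -0.14.

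Pairs of clones with the same label differed as widely as pairs across the labels, and both kinds also held pairs that lay close together. Clone 69 exceeded clone 73, both labelled high, by a median of 0.34 with LPS and 0.36 unstimulated, which is 1.27-fold and 1.28-fold. Over all 8612 genes that median was 0.02 in each condition. Clone 69 was the higher of this pair in both conditions for 174 of the 213 genes, or 81.7%, against 36% of all genes within the limits. Clone 7 exceeded clone 75, both labelled low, by 0.31 with LPS and 0.29 unstimulated, against 0.08 and 0.01 over all genes. It was the higher of the pair in both conditions for 166 genes, or 77.9%, against 33.3% of all genes. Within the labels, clone 73 also differed from clone 83 by -0.26 with LPS and -0.27 unstimulated, and clone 7 from clone 29 by 0.23 and 0.25. The other pairs within a label were close, with clone 69 minus clone 83 at 0.03 with LPS and 0.02 unstimulated and clone 29 minus clone 75 at 0.08 and 0.03. Across the labels, clone 69 exceeded clone 75 by 0.35 with LPS and 0.34 unstimulated and clone 29 by 0.30 and 0.26, and clone 73 differed from clone 7 by -0.31 and -0.33. Other pairs across the labels were close: clone 69 exceeded clone 7 by 0.06 with LPS and 0.04 unstimulated, and clone 73 differed from clone 29 by -0.03 and -0.06. Clone 83, whose deviation depended on position as described below, differed from clone 7 by 0.01 with LPS and -0.02 unstimulated.

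Against the other chromosomes, chosen by the same limits, chromosome 18 had the highest median deviation of all 20 in clone 7 and the lowest in clone 73, in both conditions. It ranked 2 from the top in clone 69 and 4 from the top in clone 83 in both conditions. From the bottom it ranked 2 with LPS and 3 unstimulated in clone 29, and 3 in both conditions in clone 75. The SD of the chromosome median over the 6 clones was 0.20 with LPS and 0.19 unstimulated. It was larger for chromosome 14 alone, at 0.33 with LPS and 0.30 unstimulated, and slightly smaller for chromosome 15, at 0.19 and 0.16. Those 2 chromosomes differed from chromosome 18 in how their medians fell between the labels. High clones exceeded low clones by 0.59 with LPS and 0.54 unstimulated on chromosome 14, and by 0.33 and 0.30 on chromosome 15. On chromosome 18 the same difference of medians was 0.13 with LPS and 0.08 unstimulated, smaller than its SD over clones. Chromosome 12 had a similar difference, 0.14 and 0.09, with an SD of 0.17 and 0.16. There clone 73 was highest, at 0.36 with LPS and 0.32 unstimulated. On chromosome 5, clone 69 was at -0.14 and clone 73 at 0.13 with LPS. High clones on opposite sides of 0 were therefore not particular to chromosome 18. These ranks were not tested.

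**Figure D1:**
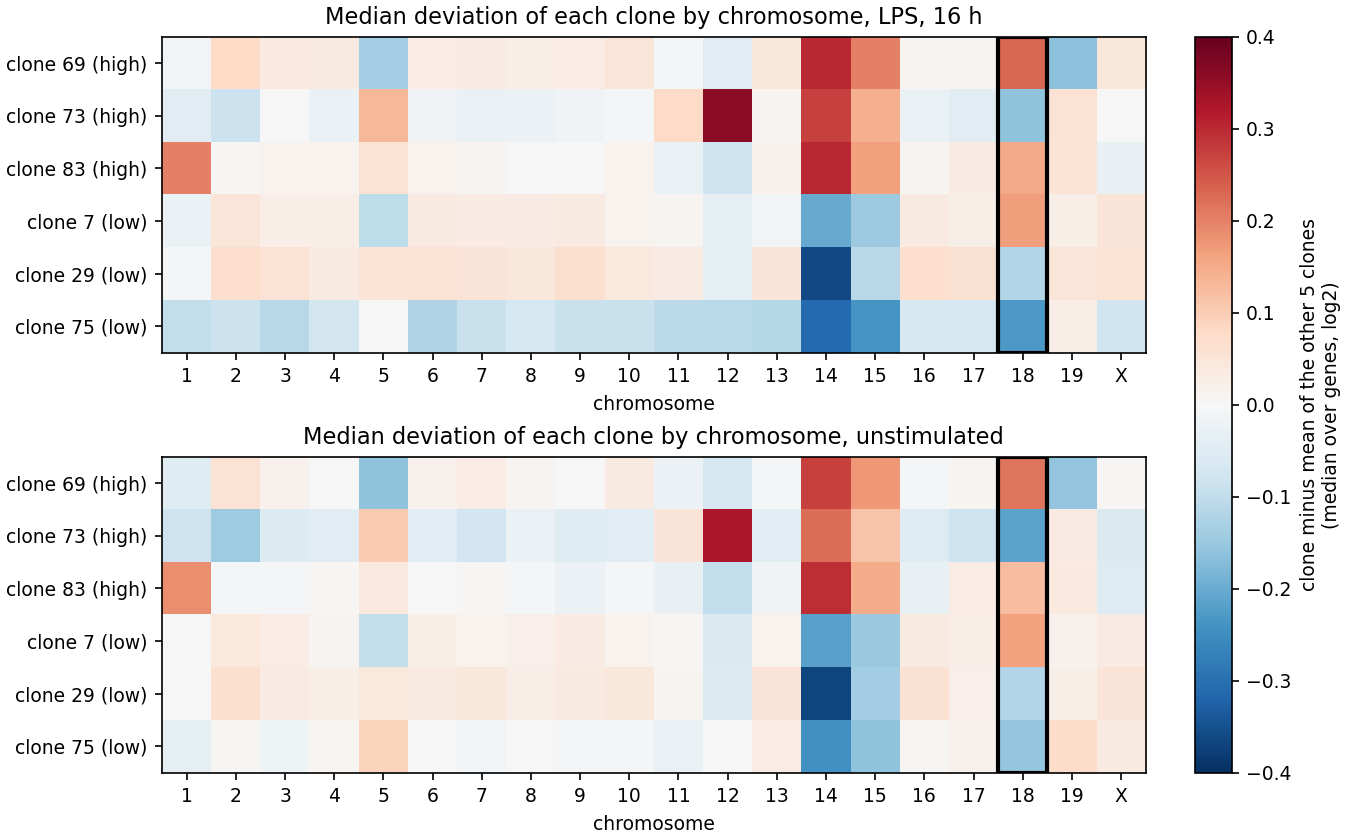
Median log2 deviation of each clone from the mean of the other 5 for the genes of each of 20 chromosomes, as a colour from blue (lower) to red (higher), with LPS in the upper panel and unstimulated in the lower, high clones above low clones and chromosome 18 framed. Chromosome 18 is red in clones 69, 83 and 7 and blue in clones 73, 29 and 75 in both panels, whereas chromosomes 14 and 15 are red in the 3 high clones and blue in the 3 low clones.

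Single genes showed the same split, with different breadth in each clone. Clone 69 was at least 0.3 above the other 5 in both conditions for 34 of the 213 genes (16%), against 3.6% of all genes within the limits, and was at least 0.3 below for 0 genes, against 1.75%. Clone 73 was at least 0.3 below for 36 genes (16.9%), against 3.43%, and above for 2 genes (0.939%), against 5.67%. Clone 83 had the widest spread, with 55 genes at least 0.3 above (25.8%, against 6.25%) and 10 at least 0.3 below (4.69%, against 1.96%). Clone 7 was above for 23 genes (10.8%, against 1.61%) and below for 1 gene (0.469%, against 2.36%). Clone 29 was below for 6 genes (2.82%, against 2.86%), a share near that of all genes, and above for 0, against 1.82%. Clone 75 was below for 19 genes (8.92%, against 3.44%) and above for 0, against 0.732%.

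Counted by sign alone, each clone had more of the 213 genes on one side of 0 than on the other. In clone 69, 169 genes were above the other 5 in both conditions and 18 below in both, where 37% and 29.6% of all 8612 genes were. In clone 73, 17 were above and 155 below, against 32.4% and 33.8% of all genes. Clone 83 was mixed, with 116 above and 65 below, against 39.2% and 30.5%. In clone 7, 160 genes were above and 18 below, against 34.9% and 32%. In clone 29, 21 were above and 139 below, against 39.6% and 26.1%. In clone 75, 18 were above and 140 below, against 19.4% and 34.6%. Gene by gene, the deviations with LPS and unstimulated correlated across the 213 genes at r = 0.87 in clone 83, against 0.69 across all 8612 genes, and at 0.63 in clone 69 and 0.63 in clone 73, against 0.59 in each. The correlation was 0.57 in clone 7, 0.38 in clone 29 and 0.23 in clone 75, against 0.58, 0.58 and 0.18 across all genes. Genes are not independent replicates, and both arrays of a clone share its cells.

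Clones 69 and 7 stayed above 0 in every part of the chromosome, with lower values in its middle. Clone 69 had a median of 0.29 with LPS and 0.23 unstimulated over the 45 genes that start before 30 Mb, 0.17 and 0.16 over the 89 genes between 30 and 60 Mb, and 0.26 and 0.23 over the 79 genes from 60 Mb. Clone 7 had 0.20 in each condition before 30 Mb, 0.11 and 0.12 between 30 and 60 Mb, and 0.20 and 0.19 from 60 Mb. Clones 73, 29 and 75 were below 0 in every part and condition. Their medians lay between -0.10 and -0.23 in clone 73, between -0.03 and -0.15 in clone 29, and between -0.10 and -0.26 in clone 75. In bins of 10 Mb with 20 or more genes, clone 69 ranged from 0.08 to 0.28 and clone 7 from 0.10 to 0.21. That cut leaves out the bins before 30 Mb, of 13 to 16 genes each. The bin from 20 to 30 Mb reached 0.36 in clone 69 and 0.27 in clone 7 with LPS.

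Clone 83 differed in sign between parts of the chromosome. Before 30 Mb its median was -0.16 with LPS and -0.18 unstimulated, between 30 and 60 Mb it was 0.34 and 0.29, and from 60 Mb it was 0.09 in each condition. The last of these depended on single clones in the reference: it was 0.04 with LPS without clone 75 and 0.03 unstimulated without clone 73. The 57 genes that start between 30 and 40 Mb carried the highest values, with medians of 0.43 with LPS and 0.46 unstimulated, 1.35-fold and 1.38-fold above the mean of the other clones. The other clones lay between -0.32 and 0.19 in that bin. Because clone 83 itself enters the mean that the others were set against, part of their lower values between 30 and 60 Mb follows from its higher ones.

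**Figure D2:**
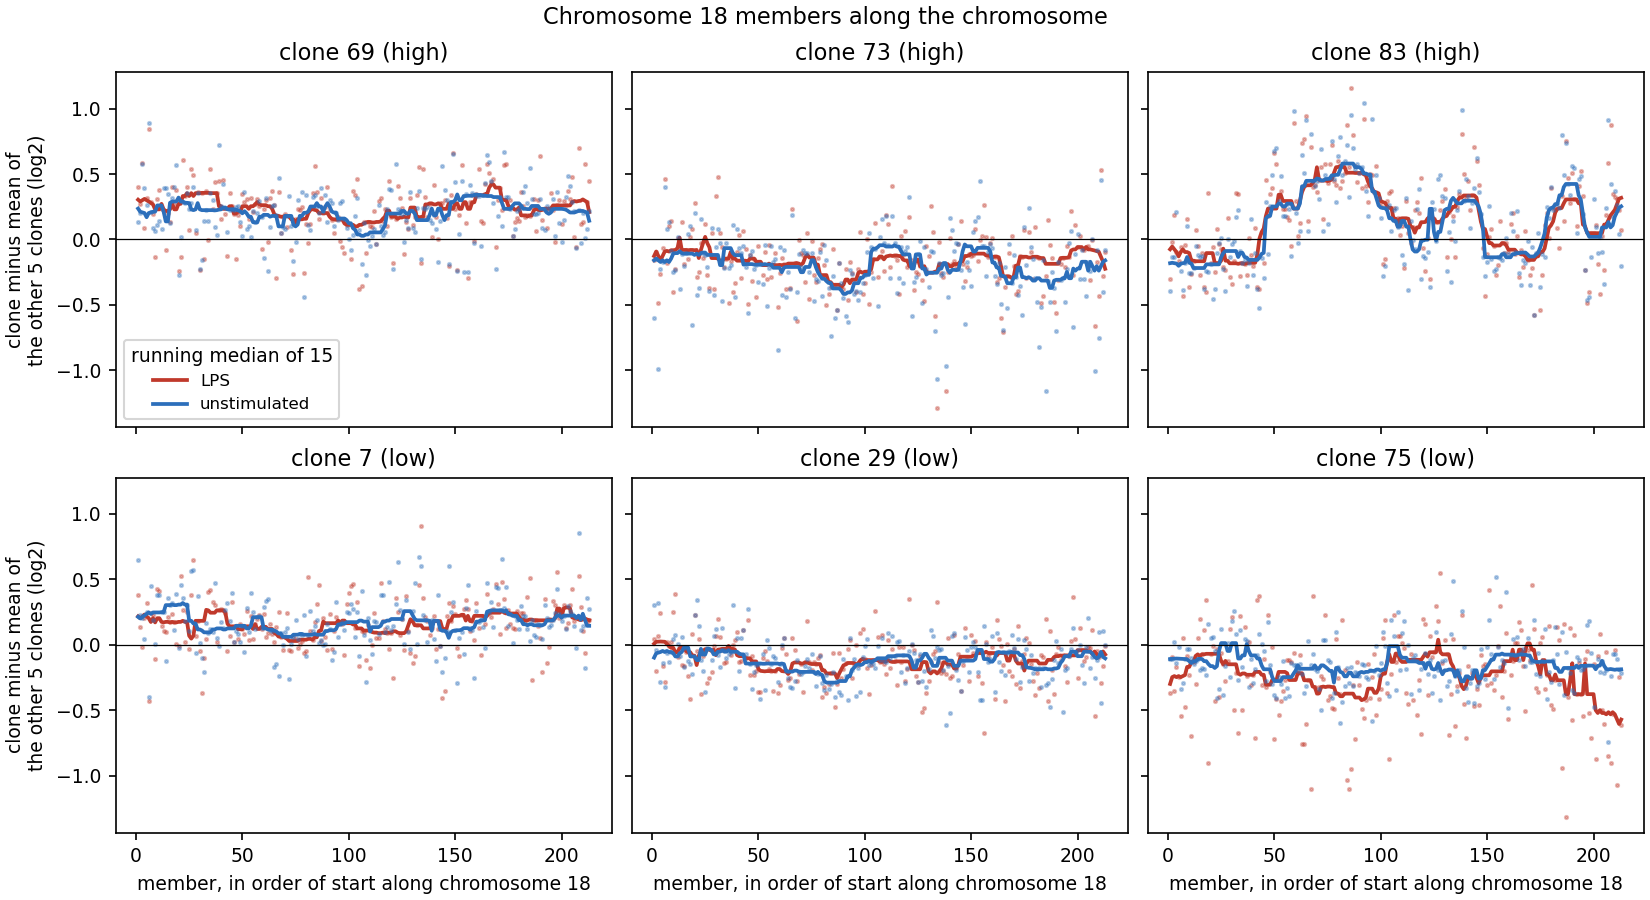
Log2 deviation of each clone from the mean of the other 5 for the 213 genes in order of start along chromosome 18, one point per gene and condition with lines for the running median over 15 genes, high clones above low clones. The running median of clones 69 and 7 stays above 0 and that of clones 73, 29 and 75 mostly below, while clone 83 crosses 0 several times and peaks between 30 and 40 Mb.

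Borders for clone 83 were drawn where the running median over 9 genes of its unstimulated array changed sign, which gave 8 stretches, and its LPS array was then read in them. Both arrays are of the same clone, so the LPS values come from another array without being another clone. The first stretch, from Crem at 3.3 Mb to Pik3c3 at 30.3 Mb, held 46 genes with a median of -0.16 with LPS, and 34 of them were lower than in the other clones while 12 were higher. The second, from Rpl29-ps5 at 30.5 Mb to Eif3j2 at 43.5 Mb, held 65 genes with a median of 0.40 with LPS, and 61 of them were higher while 4 were lower. The border falls between Pik3c3 and Rpl29-ps5. Pik3c3, which encodes the lipid kinase Vps34 of autophagy, was itself at 0.46 with LPS and 0.29 unstimulated in clone 83. The chosen gene before it, AW554918, starts at 25.2 Mb and was at -0.18 with LPS and -0.30 unstimulated.

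Alternating signs on the unstimulated array follow from how the borders were drawn, so only the LPS values are given for the next stretches. From Csnk1g3 at 53.9 Mb to Fbxo38 at 62.5 Mb, 24 genes had a median of 0.24 with LPS, with 20 higher, 3 lower and 1 at 0. From Napg at 63.0 Mb to Mbd2 at 70.6 Mb, 28 genes had a median of -0.11, with 7 higher and 21 lower. From n-R5-8s1 at 73.5 Mb to Gm19578 at 77.7 Mb, 21 genes had a median of 0.24, with 18 higher and 3 lower. The last stretch, from Pqlc1 at 80.3 Mb to Tmx3 at 90.5 Mb, held 11 genes with a median of 0.23, with 9 higher and 2 lower. The remaining stretches, with 13 genes from Ythdc2 and 5 genes from Haus1, changed sign between conditions, at 0.09 and 0.05 with LPS against -0.08 and -0.11 unstimulated. Stretches were not uniform inside: Arhgap26, a GTPase-activating protein, and Nr3c1, the glucocorticoid receptor, were at -0.19 and -0.15 with LPS and at -0.28 and -0.20 unstimulated, although they lie at 39.0 and 39.4 Mb within the second stretch. Their neighbours Rnf14 at 38.3 Mb and Yipf5 at 40.2 Mb were at 0.25 and 0.29 with LPS.

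In the same stretches the other clones kept 1 sign each, apart from clone 29, which was at 0.05 with LPS and -0.04 unstimulated over the 5 genes from Haus1. Clone 75 was the lowest with LPS in the stretches from Haus1 and from Pqlc1, and after subtraction of the array-wide medians it was at -0.43 and -0.44 there, against -0.10 and -0.19 unstimulated. These 2 stretches hold 16 genes in all, and the lower values belong to the LPS array that stood apart.

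**Figure D3:**
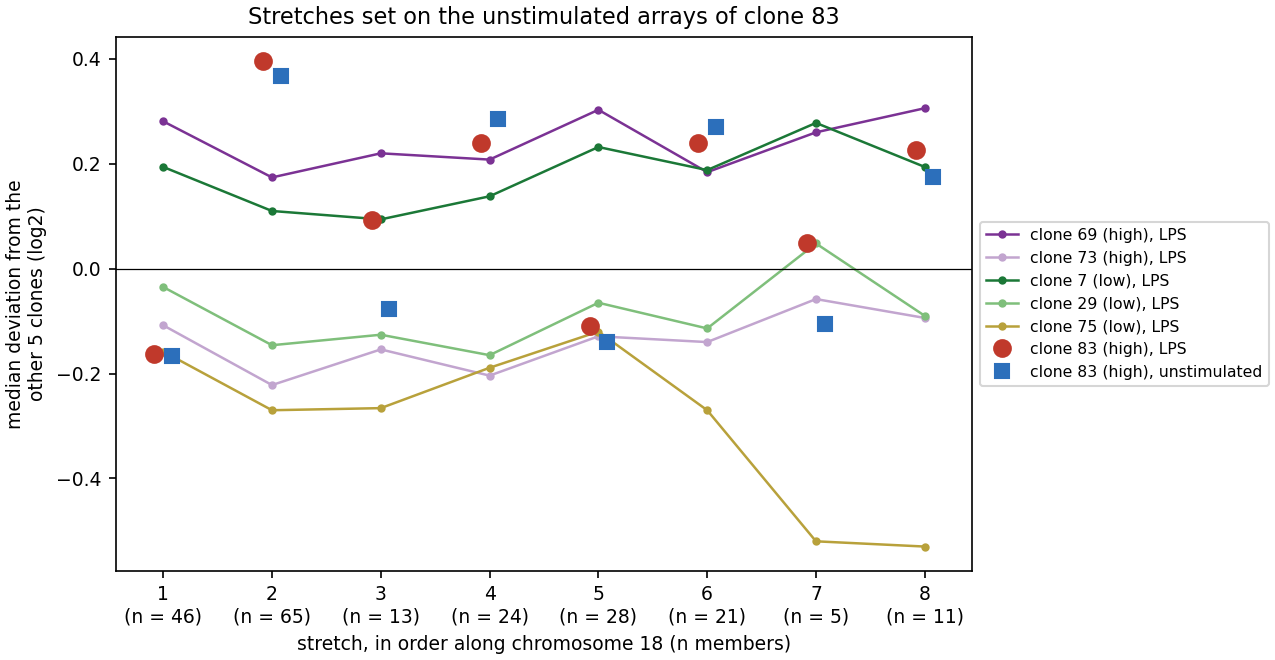
Median log2 deviation of each clone in the 8 stretches of chromosome 18 bounded by sign changes of clone 83, in order along the chromosome, with LPS for every clone (lines, except large circles for clone 83) and unstimulated for clone 83 (squares). With LPS, clone 83 is below 0 in stretches 1 and 5, above 0 in the others, and reaches 0.40 in the stretch from 30.5 to 43.5 Mb, while clones 69 and 7 stay above 0 in all of them.

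The genes with the largest deviation shared by both conditions showed how far single genes went beyond these medians. Levels are given in the order of clones 69, 73 and 83 for the high label and 7, 29 and 75 for the low label. Tmco6, a gene for a membrane protein (chr18:36735068-36742391, mm10), had log2 levels of 6.06, 5.64 and 6.89 in the high clones with LPS, against 6.31, 5.53 and 5.14 in the low clones. Unstimulated, it had 6.13, 5.46 and 6.75 in the high clones, against 5.97, 5.63 and 5.82 in the low clones. Clone 83 was the highest of the 6 in both conditions, by 1.15 with LPS and 0.95 unstimulated over the mean of the others. Vaultrc5, a vault RNA gene whose transcript belongs to the vault ribonucleoprotein (chr18:36801763-36802107), had 8.35, 7.84 and 8.99 in the high clones with LPS, against 8.20, 8.20 and 7.76 in the low clones. Its unstimulated levels were 8.29, 7.53 and 8.93 in the high clones, against 7.96, 7.71 and 7.93 in the low clones. Clone 83 again stood highest, by 0.92 with LPS and 1.05 unstimulated. Both genes lie in the second stretch.

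Tcf4, an E protein transcription factor of the basic helix-loop-helix class (chr18:69344146-69687967), was the only gene at least 0.5 lower in clone 83 in both conditions. Its levels with LPS were 8.27, 7.75 and 7.60 in the high clones, against 8.48, 8.20 and 8.18 in the low clones. Unstimulated they were 8.15, 7.71 and 7.58 in the high clones, against 8.61, 8.10 and 8.22 in the low clones. Clone 83 was lowest, at -0.58 in each condition, and clone 7 was highest.

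In clone 69 the leading genes were Svil and Napg. Svil encodes supervillin, which links actin to membranes (chr18:4920540-5119299). It had 5.99, 5.67 and 5.24 in the high clones with LPS, against 4.93, 5.05 and 4.83 in the low clones. Unstimulated it had 5.99, 5.58 and 5.05 in the high clones, against 4.92, 4.98 and 4.97 in the low clones. Clone 69 was 0.85 above the other 5 with LPS and 0.89 unstimulated. Napg encodes gamma-SNAP, an adaptor for the disassembly of SNARE complexes after membrane fusion (chr18:62977836-62999450). It had 8.05, 7.41 and 7.14 in the high clones with LPS, against 7.75, 7.27 and 7.38 in the low clones. Unstimulated it had 7.96, 7.22 and 7.18 in the high clones, against 7.69, 7.24 and 7.20 in the low clones. Here clone 69 was followed by clone 7, and the other clones lay close together.

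Impact and Chsy3 led in clone 7. Impact encodes an inhibitor of the eIF2 kinase GCN2 and is imprinted in mouse (chr18:12972252-12992948). It had 8.80, 8.08 and 8.20 in the high clones with LPS, against 8.93, 8.18 and 8.16 in the low clones. Unstimulated it had 8.72, 8.06 and 8.06 in the high clones, against 8.86, 8.36 and 8.25 in the low clones. Clones 7 and 69, of opposite label, were therefore the highest, and clone 7 was 0.65 above the other 5 with LPS and 0.57 unstimulated. Chsy3 encodes a chondroitin sulfate synthase (chr18:59175340-59411336). It had 6.82, 5.90 and 7.12 in the high clones with LPS, against 7.73, 7.24 and 7.01 in the low clones. Unstimulated it had 6.89, 6.13 and 7.13 in the high clones, against 7.52, 7.00 and 7.42 in the low clones. Clone 7 was highest, and clone 73 was lowest, at -1.28 with LPS and -1.06 unstimulated. Averaged over both conditions the deviation of clone 73 was -1.17, and -0.63 when all features of the symbol were averaged. That of clone 7 was 0.76, and 0.52 over all features.

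Clone 73 was also lowest for Ndst1, an enzyme that removes acetyl groups from heparan sulfate and adds sulfate in their place (chr18:60685963-60748650). Its levels with LPS were 8.03, 6.84 and 8.48 in the high clones, against 7.87, 7.62 and 8.0 in the low clones. Unstimulated they were 7.94, 7.01 and 8.64 in the high clones, against 7.97, 7.31 and 8.03 in the low clones. The highest and the lowest clone thus both carry the high label, and clone 73 lay at -1.16 with LPS and -0.97 unstimulated. Zfp516, a zinc finger gene (chr18:82910879-83005314), was the only one at least 0.5 lower in clone 75 in both conditions. It had 6.79, 6.83 and 7.32 in the high clones with LPS, against 7.01, 6.93 and 6.13 in the low clones, and unstimulated 6.83, 6.89 and 7.65 in the high clones, against 6.87, 6.81 and 6.27 in the low clones. Clone 75 lay at -0.85 with LPS and -0.74 unstimulated, and clone 83 was highest. No gene reached 0.5 in both conditions above the rest in clones 73 or 75, below the rest in clones 69 or 7, or in either direction in clone 29.

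**Figure D4:**
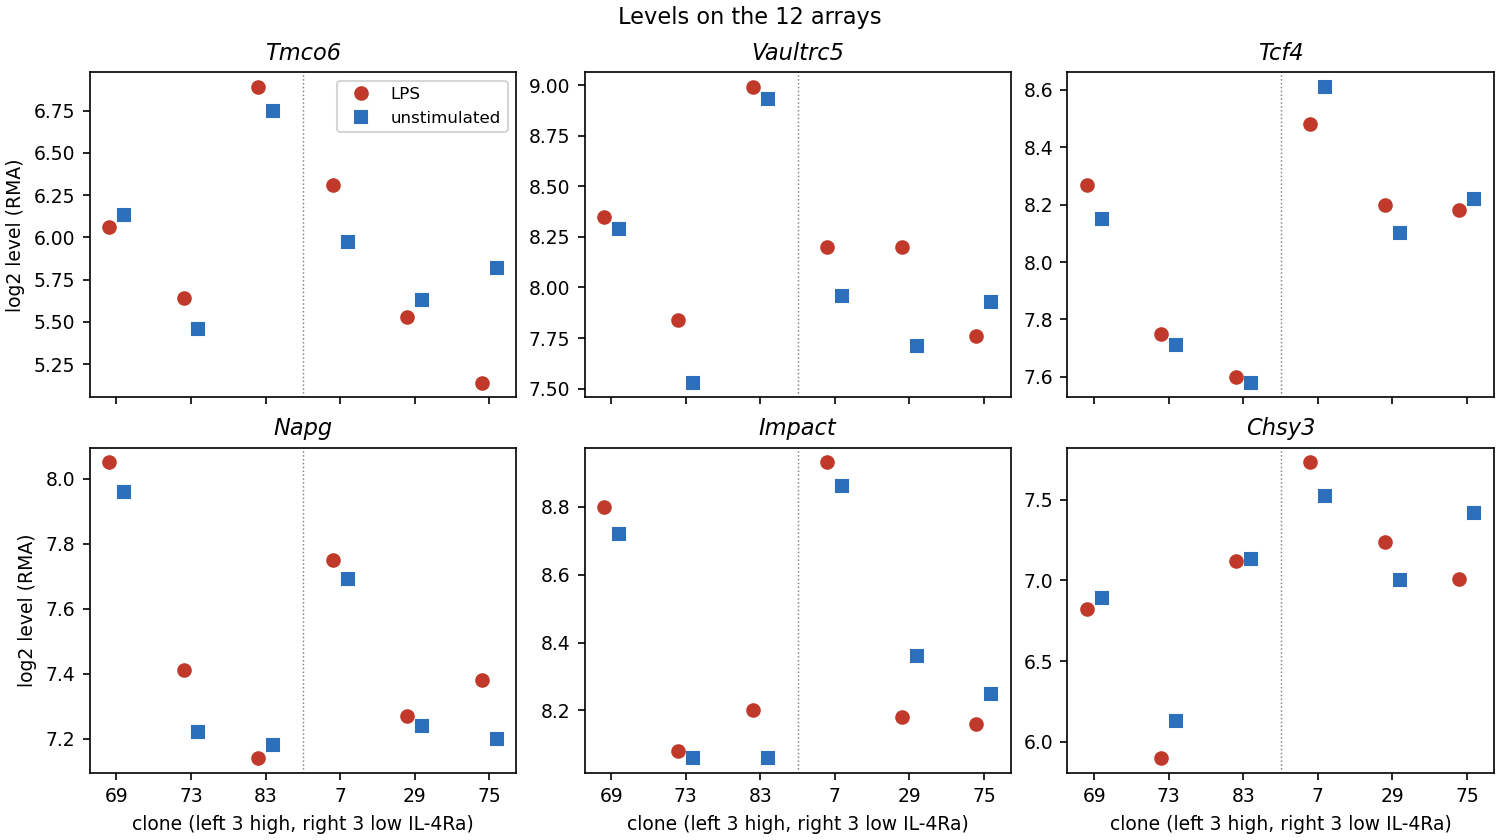
Deposited log2 levels of Tmco6, Vaultrc5, Tcf4, Napg, Impact and Chsy3, one point per array (circles with LPS, squares unstimulated), with high clones left of the dotted line and low clones right of it, and axes that do not start at 0. Clone 83 is highest for Tmco6 and Vaultrc5 and lowest for Tcf4, clones 69 and 7 are highest for Napg and Impact, and clone 73 is lowest for Chsy3.

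Genes of unrelated function shared the shift of each clone, while in clone 83 members of the same list lay on both sides of 0. The counts in each list are to be read against the shares over all 213 members given above, which were 25.8% higher and 4.69% lower in clone 83, 16% higher in clone 69, 10.8% higher in clone 7, 16.9% lower in clone 73 and 8.92% lower in clone 75, and nothing particular to a list follows from them. Of 9 genes of translation among 13 listed, 5 were at least 0.3 higher in clone 83 in both conditions and 3 at least 0.3 lower in clone 73. The median over these 9 genes, averaged over conditions, was 0.41 in clone 83 and -0.34 in clone 73. Etf1, the release factor that ends translation, was at 0.41 in clone 83, and the tRNA synthetase genes Hars and Lars were at 0.51 and 0.31. Of 13 mitochondrial and metabolic genes among 17 listed, 5 were higher in clone 83, 3 higher in clone 69 and 3 lower in clone 73. Hspa9, the mitochondrial chaperone mortalin, was at 0.41 in clone 83, whereas Atp5a1, a subunit of ATP synthase, and Afg3l2, a protease of the inner membrane, were at -0.04 and -0.10.

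Of 20 genes of transcription and RNA processing among 22 listed, 5 were higher and 3 lower in clone 83, and 4 were lower in clone 73. Hdac3, a histone deacetylase of nuclear receptor corepressor complexes, was at 0.50 in clone 83 and the splicing factor gene Ik at 0.55, but Txnl4a, another component of the spliceosome, was at -0.15. Of 19 genes of cell division and cytoskeleton among 20 listed, 4 were higher in clone 69 and 4 in clone 7, while clone 83 had 2 higher and 3 lower. Cep192, a scaffold of centrosome maturation, was at 0.38 in clone 7, 0.24 in clone 69 and -0.31 in clone 83. Seh1l, a nuclear pore component, was at 0.37 in clone 69 and -0.05 in clone 83. Diap1, the file's symbol for the formin gene Diaph1, was at 0.27 in clone 7 and 0.23 in clone 83.

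Of 15 genes of membrane traffic among 21 listed, 3 were higher in clone 69, close to the share of all members, and 0 in clone 83. The cargo receptor genes Lman1 and Tmed7 were at 0.35 and 0.14 in clone 69, and the kinesin heavy chain gene Kif5b at 0.14. Of 7 ubiquitin pathway genes among 13 listed, 1 was higher in clone 83 and 1 lower in clone 75. Ube2d2a, a ubiquitin-conjugating enzyme, was at 0.46 in clone 83 and -0.43 in clone 75, and the ligase genes Rnf14 and Cul2 were at 0.21 and -0.08 in clone 83. Of 4 genes of the TGF-beta and SMAD list of 7, 1 was higher in clone 69, 1 higher in clone 7 and 1 lower in clone 73. The transducers Smad2 and Smad4 were at 0.33 and 0.23 in clone 7 and at -0.25 and -0.22 in clone 73, and Pias2, a SUMO ligase, was at 0.30 in clone 69. Of 5 immune and kinase signalling genes among 15 listed, 0 reached 0.3 in both conditions in any clone. The casein kinase genes Csnk1a1 and Csnk1g3 were at 0.31 and 0.20 in clone 83, and Nr3c1 was at 0.37 in clone 7. In all 8 lists the medians were above 0 in clones 69 and 7 and below 0 in clones 73, 29 and 75. Clone 83 was above 0 in 7 lists and at -0.18 in the list of cell division and cytoskeleton.

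Most of the 213 genes (174) are protein coding in RefSeq, and their medians, at 0.24 in clone 69, -0.21 in clone 73, 0.15 in clone 83, 0.18 in clone 7, -0.14 in clone 29 and -0.22 in clone 75, were close to those of all members. The annotation marks 16 members as having probes that can bind transcripts of other genes. Over these 16 the medians were 0.01 in clone 69, 0.03 in clone 73, 0.11 in clone 83, -0.02 in clone 7, -0.01 in clone 29 and -0.11 in clone 75. Their SD over clones had a median of 0.15, against 0.27 for the 197 members with unique probes. RefSeq (GRCm38.p6) placed 197 of the 202 matched members on chromosome 18 and the other 5 on chromosomes 9, X, 4, 7 and 14, in the order Rsl24d1, C330007P06Rik, Mir684-2, Gm10294 and Gnpnat1.

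The labelled phenotype was then compared across the same genes, a contrast that the limits on level and LPS difference did not use. The chromosome was chosen with its split across the labels known, so few calls here are not independent evidence of that split. With limma over all 27464 genes and Benjamini-Hochberg adjusted p-values, 0 of the 213 genes differed between high and low clones with LPS, where 1.31% of all genes were called, and 14 (6.57%, against 10.9% of all genes) had an unadjusted p under 0.05. Unstimulated, 0 of the 213 differed, where 1.13% of all genes were called, and 10 (4.69%, against 10.5%) had an unadjusted p under 0.05. Median differences, high minus low, were 0.10 with LPS and 0.06 unstimulated, against 0.03 and -0.01 over the 8612 genes within the limits. From the 5th to the 95th percentile the differences ran from -0.23 to 0.50 with LPS and from -0.27 to 0.39 unstimulated, with a median standard error of 0.18. On the mean of both arrays of each clone the median difference was 0.08, against 0.01 over the genes within the limits. In that comparison 1 of the 213 genes was called, where 1.26% of all genes were, and 14 (6.57%, against 11.2%) had an unadjusted p under 0.05. Missing the threshold does not show that the phenotypes were alike. The shares of all genes, here and for the LPS response below, are over all 27464 genes. They include dim genes and genes with a larger LPS difference, which the limits keep out of the 213.

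**Figure D5:**
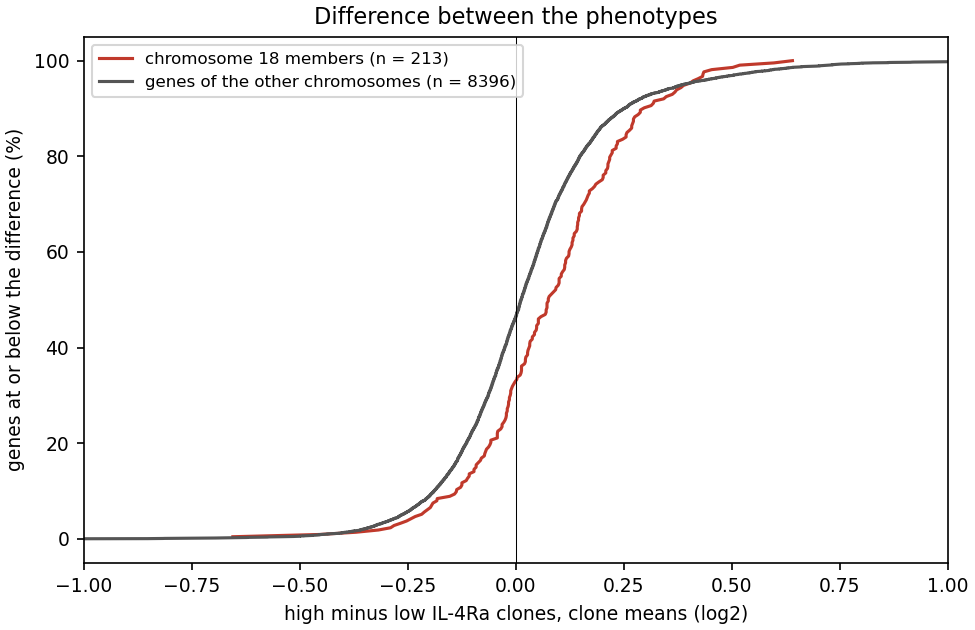
Cumulative share of genes (in %) at or below a given high minus low difference of clone means (log2, from -1 to 1), for the 213 chromosome 18 genes and for genes of the other chromosomes within the same limits. The curve of chromosome 18 lies to the right through its middle, with a median of 0.08, and both curves meet below -0.3 and near 0.4.

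The gene called on the clone means was Gnpnat1, an acetyltransferase of the hexosamine pathway that supplies UDP-N-acetylglucosamine. Its levels with LPS were 8.56, 8.52 and 8.34 in the high clones, against 8.03, 7.84 and 7.19 in the low clones, and unstimulated 7.96, 8.33 and 8.17 in the high clones, against 7.80, 7.58 and 7.86 in the low clones. The groups did not overlap in either condition. The difference of clone means was 0.60 ± 0.11 (SE, n = 3 clones each, limma adjusted p = 0.048). The adjusted p was 0.0609 with LPS alone and 0.462 unstimulated, and it lay between 0.0551 and 0.172 when each clone was left out in turn. The feature lies at chr18:86242768-86243585 in the file, but RefSeq places Gnpnat1 on chromosome 14, and another feature of the same symbol lies at chr14:45376334-45388802, with a difference of clone means of 0.41. Whether the chromosome 18 feature reads transcripts of the chromosome 14 gene was not tested. Svil, which separated the phenotypes without overlap, had a difference of clone means of 0.64 ± 0.18 and a limma adjusted p of 0.189. Its low clones averaged 4.94 with LPS and 4.96 unstimulated, under the level limit of 5, against 5.63 and 5.54 in the high clones. Svil met that limit only through the high clones, so its separation is not independent of how the genes were chosen. Its 3 high clones spanned 5.24 to 5.99 with LPS, a range wider than that of the low clones, 4.83 to 5.05. Mir1b separated the phenotypes narrowly in the opposite direction in both conditions (difference of clone means -0.37, limma adjusted p = 0.258). With LPS its highest high clone was at 6.03 and its lowest low clone at 6.04, and unstimulated these were at 6.33 and 6.36. How many of all genes separate the 3 high from the 3 low clones was not counted. Whether separation is more frequent among the chromosome 18 genes than elsewhere therefore cannot be said, and nothing is read from it.

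The LPS response of these genes, small by the limit that chose them, was also compared between the phenotypes. In limma's test of the difference of responses, 0 of the 213 genes were called, where 0.0109% of all genes were. Of the 213, 0 had an unadjusted p under 0.05, against 4.73% of all genes. This fit held no term for the clone, so differences between clones stayed in its error. The lower share therefore does not show that the responses were alike. Over the 213 genes, a clone's LPS and unstimulated deviations from group means correlated at 0.69, 0.75 and 0.885 in clones 69, 73 and 83. In clones 7, 29 and 75 they correlated at 0.45, 0.15 and 0.08. The median difference of responses was 0.05, against 0.04 over the genes within the limits, and its 5th and 95th percentiles were -0.21 and 0.33. The median standard error was 0.25.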

How the data were processed

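RNA of 12 cultures was hybridised to Affymetrix MoGene-2_1-st arrays. Per the submitters' processing notes the software was Affymetrix Expression Console. The authors deposited log2 values from RMA, with background correction, quantile normalization and median polish, per the file headers. Such values are relative and carry no absolute amount of RNA, and the summarised gene values still differed slightly between arrays in SD and median. The annotation is NetAffx build 34 on mm10, and all coordinates are the file's. The workbook and the series matrix held the same values (largest difference 0 over 41155 features). Signal over background is not given, so dim genes are bounded only by the level limit.

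One feature per symbol and chromosome, that with the highest mean, stood for a gene (27464 genes). High and low clones were compared with limma 3.58.1 (R 4.3.3; lmFit, eBayes, 4 groups over 12 arrays, or 6 clone means), two-sided, with Benjamini-Hochberg adjusted p under 0.05; deviations and stretches were computed with pandas 2.3.3. The fit was also run on simulated data with independent noise on each array. The planted shifts were larger than the high minus low differences of the genes named above. That run therefore does not bear on correlated arrays of a clone or on small differences. p-values measure the spread between clones of 1 line. The fit of 4 groups held no term for the clone, so both arrays of a clone counted as independent in its error. Of the main fits, only that on clone means took the clone as the replicate. Each array's clone is labelled, which pairs its LPS and unstimulated arrays; their deviations from group means correlated over all genes at 0.40 in clone 69, 0.41 in clones 73 and 83, 0.23 in clone 7, 0.20 in clone 29 and 0.10 in clone 75. No batch, slide or scan date was given in the sources used here.

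Members, functional lists and positional parts were chosen with earlier results of these data known. Genes named are, per clone and direction, the 2 with the largest deviation of at least 0.5 in both conditions, genes called in a test, neighbours of the limits, the 3 brightest of each list and the first and last member. Genes at stretch borders and inside the second stretch, Mir1b and Pcyox1l were named after their values were seen. RefSeq (GRCm38.p6) was used for names, biotypes and chromosomes.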

Additional observations from a re-analysis of the deposited data

How the results depend on the processing

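Every median deviation of a clone over the 213 genes kept its sign under all alternatives, which were the median of the other clones as reference, subtraction of array-wide medians, a level limit of 6, no LPS limit, the mean of all features, a reference without 1 clone, and 185 members left after those with shared probes or without a RefSeq place on chromosome 18 were dropped (chosen after seeing the data). Subtraction of array-wide medians moved clone 75 with LPS to -0.14. A reference without 1 clone moved some medians strongly: clone 29 with LPS to -0.07 without clone 69, and clone 83 unstimulated to 0.08 without clone 73. Before 30 Mb, clone 83 moved to -0.095 with LPS and -0.11 unstimulated without clone 69 and to -0.11 with LPS without clone 7, and from 60 Mb to 0.04 with LPS without clone 75 and, unstimulated, 0.03 without clone 73 and 0.14 without clone 7. The mean of all features moved Chsy3 to -0.63 in clone 73 and to 0.52 in clone 7. Running medians over 7 and 11 genes gave 12 and 8 stretches in clone 83. For high minus low with LPS, the count of called genes became 1 without dim genes (Gnpnat1, limma adjusted p = 0.0371) and 1 with a variance trend and robust settings (Gnpnat1, 0.0428). Leaving out 1 array gave 0 to 1 called: Pcyox1l without the unstimulated array of clone 73 (adjusted p = 0.0376) and Gnpnat1 without the LPS array of clone 7 (0.0377). On clone means, leaving out a clone gave 0 to 2 called: 0 without clone 69, 7, 29 or 75, 1 without clone 83 (Svil, 0.0431), and 2 without clone 73 (Gm20748 and Pcyox1l, 0.0458 each). Svil, as given above, met the level limit only through the high clones. The cause of these changes in calls was not tested. With the clone as a replicate block, fixed for the difference of responses and random for high minus low (consensus correlation 0.21), 0 genes were called in each condition and in the difference, so the block changed no call. The number of arrays limits precision.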
